A study of Mus musculus with 15 samples.

Results

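Gene expression in control mouse hearts was compared between 2 and 4 weeks of age, the interval in which a suckling pup becomes a weaned juvenile. The comparison took the arrays labelled as control heart at 4 weeks (n = 3) against those labelled as control heart at 2 weeks (n = 3), which are 6 of the 15 arrays of the study, and used all 12422 probe sets. The genotype of the controls was αMHC-Cre+/0; MAT1F/+, and they came from the same litters as the knockouts. They therefore carried Cre recombinase under the α-myosin heavy chain promoter, which is active in heart muscle cells, together with 1 floxed and 1 wild-type MAT1 allele. They are not wild-type mice, and recombination of the floxed allele in muscle cells would leave them with a single working copy of MAT1 there. The knockout hearts (αMHC-Cre+/0; MAT1F/F), 4 arrays at 2 weeks and 5 at 4 weeks, entered the same fit and served as a second comparison. MAT1, the product of Mnat1, belongs to the kinase module of the transcription factor TFIIH. Each value is a deposited intensity, which is the brightness of a probe set on a linear scale after the authors' processing.

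The mouse heart changes quickly after birth. Muscle cells stop dividing and grow by enlargement, fetal isoforms of contractile and growth genes are turned down, and fuel use shifts from glucose towards fatty acids. Fibroblasts and vessel cells, which lay down much of the collagen, elastin and basement membrane around the muscle cells, are most active in the growing heart. Immune cells and daily feeding rhythms also become established around weaning.

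Between 2 and 4 weeks 12 of 21 tested fibrillar collagen genes, 8 of 17 elastic fibre and matricellular genes, 9 of 14 basement membrane genes and 4 of 12 imprinted growth genes fell. In the other direction 5 of 9 MHC genes, 10 of 21 glutathione transferase and drug metabolism genes and 3 of 13 circadian clock genes rose, together with single fuel genes. Most genes of the contractile apparatus did not pass the test. Of 4950 tested genes 293 passed limma's test at an adjusted p under 0.05, or 5.92%, and such genes are called here. Of these, 142 were higher at 4 weeks (2.87%) and 151 lower (3.05%). The median change of the called genes was 0.64 in size on the log2 scale, and 55 changed at least 2-fold (1.11% of those tested), 27 upwards and 28 downwards. The median over all tested genes was -0.03. All 3 arrays of 1 age lay beyond all 3 of the other in 501 tested genes (10.1%), in 243 of them with 4 weeks higher (4.91%) and in 258 lower (5.21%), and 182 of the 293 called genes were among these. The largest rises and falls named below were picked from such called genes. The lack of overlap stated for them was therefore fixed by that choice. In total 944 genes had an unadjusted p under 0.05. Differences are given on the scale log2(intensity + 16), as the estimate ± its standard error, and folds are taken from that scale, which understates the change of dim genes. In bulk tissue, fewer cells of a type and less RNA per cell cannot be told apart.

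The number of calls depended on how 2 sets of arrays were treated, a split that the labels do not mention. By their correlation over all probe sets the 15 arrays fell into a set of 6 and a set of 9, each with arrays of all 4 groups. Pairs of arrays from the same set correlated at 0.937 or more, and pairs from different sets at 0.924 or less. Among the controls, replicate 3 at 2 weeks and replicate 1 at 4 weeks lay in set 1 and the other 4 arrays in set 2. The set was a block in the fit. Without that block 36 genes were called, 24 higher and 12 lower, all of them among the 293. Sex, inferred from Xist and Uty, was female for 1 of the 3 control arrays at each age, and within set 1 the 4-week array was female and the 2-week array male. With set and inferred sex both as blocks 322 genes were called, 288 of them shared. Leaving out 1 control array gave between 129 calls (without replicate 1 at 2 weeks) and 373 (without replicate 1 at 4 weeks). Without replicate 2 or 3 at 4 weeks there were 156 and 142, and without replicate 2 or 3 at 2 weeks 169 and 199. Both sets gave every called gene the same sign, but 229 of the 293 changed more in set 2, with a median size of 0.72 there and 0.47 in set 1. The calls came from a fit that pooled both sets, so a gene with opposite signs would seldom have been called. The shared sign is therefore no separate support.

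**Figure D1:**
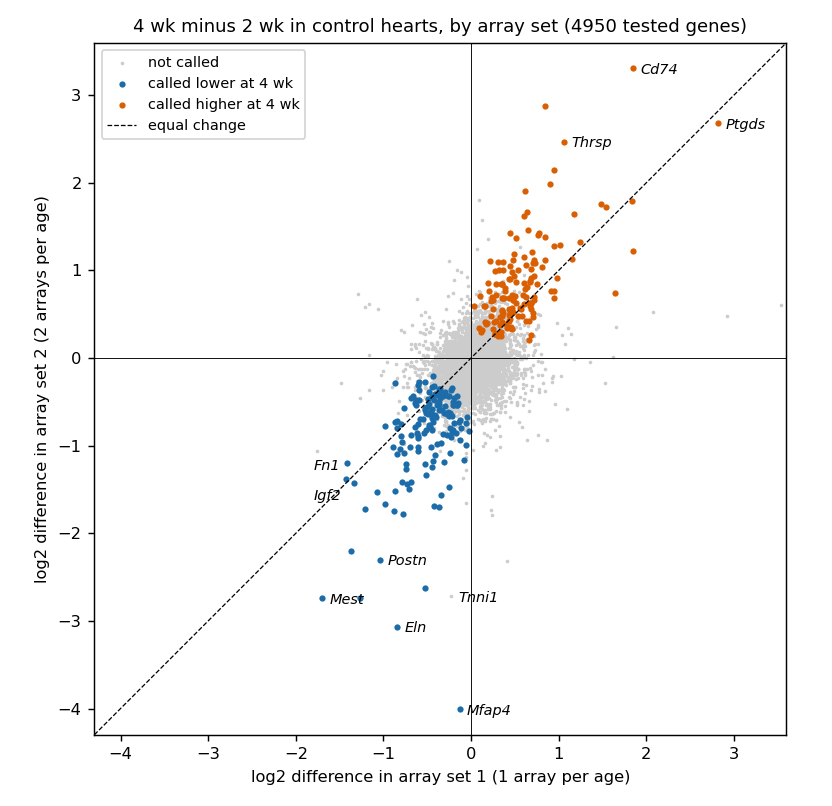
Each point is 1 of the 4950 tested genes, with its log2 difference (4 minus 2 weeks, control hearts) in array set 1 (1 array per age) on the x axis and in set 2 (2 arrays per age) on the y axis. Called genes lie in the lower left (blue) and upper right (orange), most of them farther from 0 in set 2, as for Eln (-0.84 and -3.07) and Mfap4 (-0.13 and -4.01).

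The tissue label was checked against markers of heart muscle. All 12 tested cardiomyocyte markers were bright, and none was called. Their summed intensity ran from 74130 to 80960 over the arrays at 2 weeks and from 77860 to 83310 at 4 weeks, with overlap. Mnat1 itself was read by 2 dim probe sets and was not called. The brighter one read 87.9, 119.8 and 255.0 at 2 weeks and 243.8, 106.3 and 86.0 at 4 weeks, a difference of -0.08 ± 0.16 in limma's fit (adjusted p = 0.882). The dimmer one differed by 0.16 ± 0.23 (adjusted p = 0.817). Of the 6 tested members of the TFIIH and polymerase II kinase list none was called, with a median of 0.10.

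Genes of the matrix fell in number. Collagens form its tensile fibres between muscle cells. Of 21 tested members of the fibrillar collagen and processing list, 12 fell and none rose, with a median of -0.69 against -0.03 over all tested genes. Without the set block 2 of the 12 calls remained, and within set 1 and set 2 the median was -0.47 and -0.79. Col1a1, which encodes the main chain of type I collagen, read 3661, 3386 and 2223 in the 2-week hearts (replicates 1 to 3 here and below) and 1356, 1168 and 1329 in the 4-week hearts. All 4-week arrays lay below all 2-week arrays, and the 2-week array of set 1 was the lowest of its age. The fall was -1.23 ± 0.17, or 2.34-fold (limma, adjusted p = 0.000316). Col1a2, the partner chain, read 2357, 1967 and 1185 at 2 weeks and 642.6, 698.7 and 781.3 at 4 weeks, again without overlap (-1.30 ± 0.20). Col3a1, the chain of type III collagen that is abundant in young and elastic tissue, went from 3896, 3916 and 2539 to 1518, 1523 and 1705 (-1.09 ± 0.13). The folds of these 3 genes lay between 2.13 and 2.47.

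The minor collagens and the enzymes that finish the fibre followed in part. Col5a2 (-1.45 ± 0.27), whose product starts and limits fibre growth, and Col6a3 (-1.44 ± 0.16), of the beaded filaments around cells, fell without overlap of the ages. Col5a1, Col6a1, Col6a2, Col14a1, Col15a1 and Sparc, which encodes a collagen-binding protein, fell by between 0.68 and 1.05 on the log2 scale. Lox, the enzyme that cross-links collagen and elastin, read 344.3, 243.3 and 145.2 at 2 weeks and 96.4, 21.9 and 48.1 at 4 weeks. The ages did not overlap, but the 4-week array of set 1 was the highest of its age, and the fall was -0.52 within set 1 against -2.63 within set 2 (-1.93 ± 0.47 in the fit, adjusted p = 0.023 by limma). Its call was lost when any of replicates 2 and 3 at 4 weeks or any of the 3 arrays at 2 weeks was left out. The collagen chaperone Serpinh1 (-0.32), the propeptide enhancer Pcolce (-0.39) and the lysyl oxidase relative Loxl1 (-0.59) were not called. P4ha2, a prolyl hydroxylase subunit, differed by 0.29 and Col8a1 by 0.49, also without a call.

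Of 17 tested members of the elastic fibre, matricellular and proteoglycan list 8 fell and none rose, with a median of -0.41. Of these calls 2 remained without the set block. Eln, which encodes elastin, read 2455, 2044 and 1263 at 2 weeks and 697.9, 233.4 and 273.5 at 4 weeks. Every 4-week array was below every 2-week array, and the set-1 arrays of the 2 ages lay closest together. The fall was -2.33 ± 0.37, 5.02-fold (limma, adjusted p = 0.00114). Mfap4, of the microfibrils that accompany elastin, read 540.5, 278.0 and 118.4 and then 106.6, 0.95 and 21.3, where 0.95 is the lowest value the files hold. Its difference of -2.72 ± 0.64 came from set 2 (-4.01) and not from set 1 (-0.13), and the call was lost without replicate 2 or 3 at 4 weeks and without replicate 1 or 2 at 2 weeks. Postn, which encodes periostin of developing and healing matrix, went from 2749, 2164 and 820.4 to 390.2, 425.0 and 550.9. The ages did not overlap and the fall was 3.68-fold (-1.88 ± 0.28). Fn1, for the cell-binding protein fibronectin, read 2773, 2475 and 1450 and then 527.8, 984.8 and 1010. It fell by nearly the same amount in the 2 sets (-1.43 and -1.38, -1.40 ± 0.13 in the fit, adjusted p = 2.52e-05 by limma). The microfibril genes Mfap2 and Mfap5 (both -1.06), Matn2 (-1.02) and the small proteoglycan gene Lum (-0.68) also fell. Decorin (Dcn, 0.01), biglycan (Bgn, 0.03) and osteoglycin (Ogn, 0.01), which belong to the same family of small proteoglycans as lumican, were not called.

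The basement membrane, the sheet that wraps muscle cells and capillaries, gave the highest share of calls among the matrix lists. Of 14 tested members 9 fell and 1 rose, with a median of -0.55. Without the set block 3 of the falls and no rise were called. Col4a1, a chain of the type IV collagen network, read 4246, 4264 and 3764 at 2 weeks and 2305, 2077 and 2096 at 4 weeks. The ages were far apart relative to their spread, in either set (-0.70 and -1.02), and the fall was 1.89-fold (-0.92 ± 0.08, adjusted p = 2.52e-05 by limma). Its partner Col4a2 read 2780, 2905 and 2973 and then 2308, 1947 and 1825 (-0.51 ± 0.08). Among the laminin chains Lamb1 (-0.97), Lama4 (-0.74), Lama2 (-0.63) and Lamc1 (-0.60) fell, and Lama5 rose. Lama5, a chain found in mature vessel and epithelial membranes, read 243.5, 243.1 and 199.9 at 2 weeks and 314.5, 469.6 and 437.5 at 4 weeks (0.78 ± 0.13, adjusted p = 0.00146 by limma). Lamb1 and Lama4 overlapped between the ages, because both set-1 arrays were dimmer than the set-2 arrays of their age. The linker genes Nid1 (-0.99) and Nid2 (-1.17) were too dim for the main test and were called in the fit to all 8251 genes. None of the 9 tested matrix proteases and inhibitors was called, with a median of -0.29 and values from -0.87 (Adam19) to 0.52 (Timp3).

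**Figure D2:**
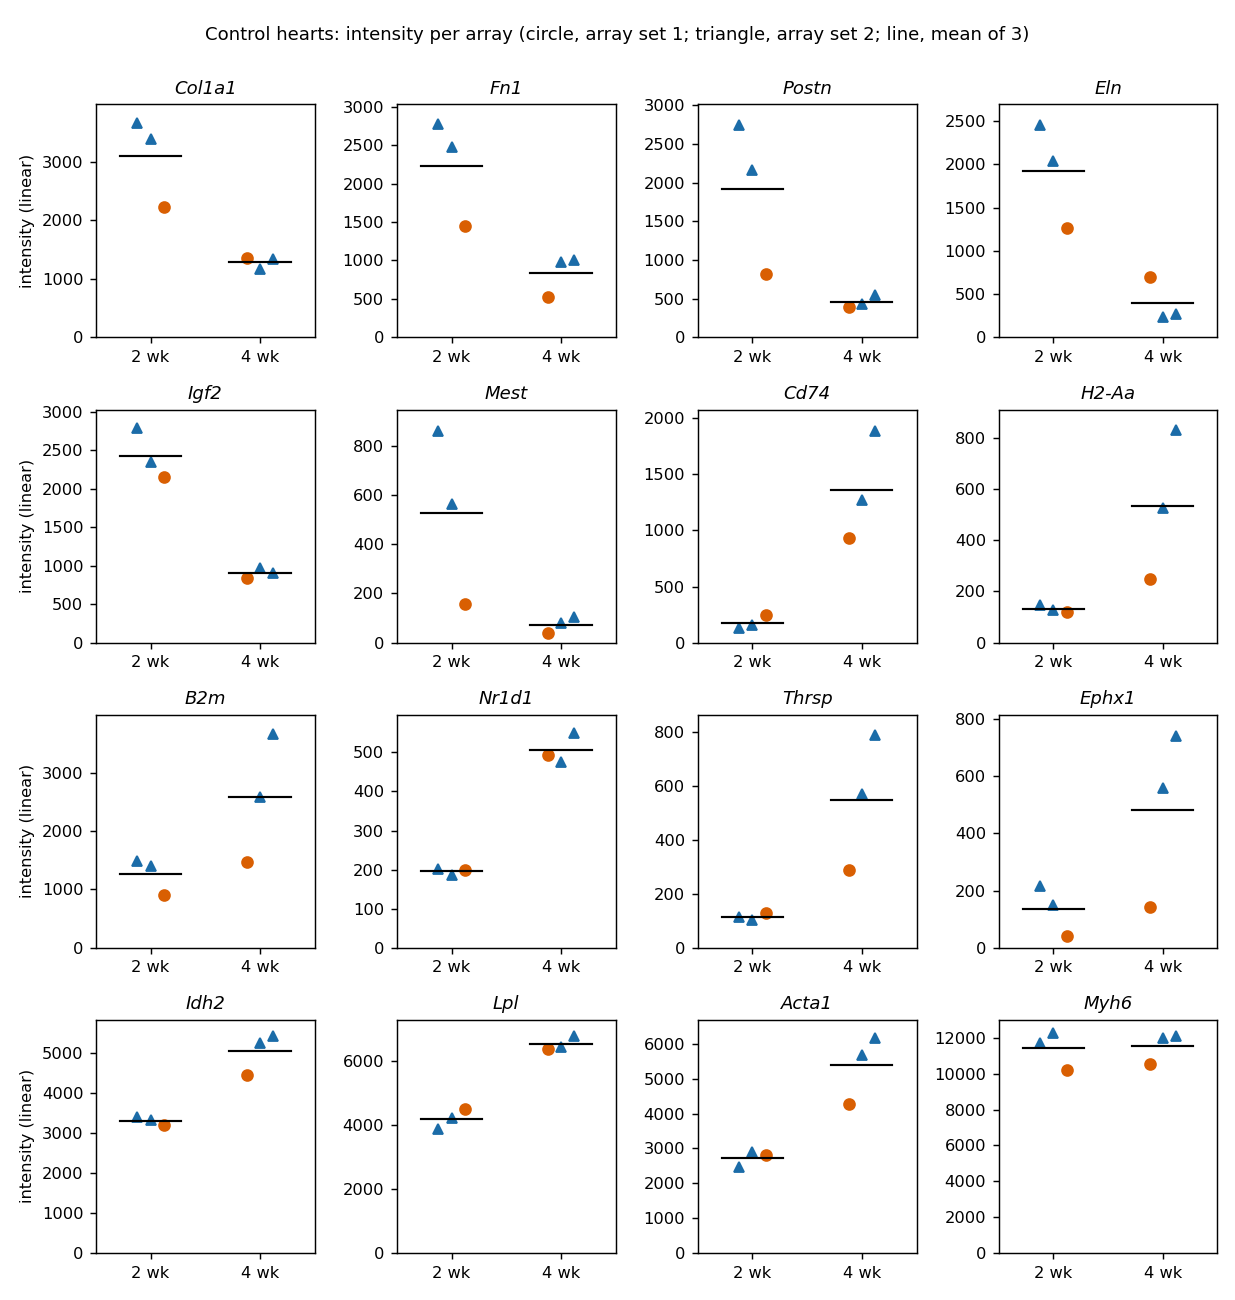
Intensity on a linear scale (y axis) of 16 genes in each control heart array at 2 and 4 weeks (x axis), with circles for array set 1, triangles for set 2 and a line at the mean of 3 arrays. Col1a1, Fn1, Postn, Eln, Igf2 and Mest are lower at 4 weeks in all arrays, Cd74, H2-Aa, Nr1d1, Thrsp, Idh2, Lpl and Acta1 are higher in all, B2m and Ephx1 are higher within each set but overlap, and Myh6 lies between 10230 and 12280 throughout.

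Markers of the cells that make this matrix moved with it in part. Of 10 tested fibroblast markers 5 fell and 1 rose, with a median of -0.62. The 3 collagen genes on that list are matrix genes themselves, and the other falls were Thy1 (-0.70 ± 0.17) and Lum. Gsn, an actin-severing protein that fibroblasts hold in quantity, rose from 1890, 2180 and 2098 to 4054, 3408 and 3548 (0.83 ± 0.11, adjusted p = 0.0003 by limma). The receptor gene Pdgfra (-0.48 ± 0.21), the collagen receptor gene Ddr2 (-0.11) and Dcn (0.01 ± 0.06) were not called. The summed fibroblast marker intensity was 17000 to 21610 at 2 weeks and 14840 to 16140 at 4 weeks, without overlap. That sum includes the 3 bright collagen genes, so it is no reading of fibroblasts apart from the matrix genes. Of 14 tested endothelial markers 3 fell (Cldn5, Cdh5 and Cav1) and none rose, with a median of -0.30. Cldn5, a tight-junction protein of capillaries, went from 706.3, 589.3 and 344.7 to 140.1, 171.8 and 199.5, a 2.92-fold fall (-1.55 ± 0.34), while Cdh5 fell by 0.35 and Cav1 by 0.28 on the log2 scale. None of the 3 endothelial calls remained without the set block. That of Cdh5 was lost on leaving out any 1 of the 6 control arrays, and that of Cav1 on leaving out any but replicate 2 at 4 weeks. That of Cldn5 was lost without replicate 2 or 3 at 4 weeks or replicate 1 or 3 at 2 weeks. The summed endothelial intensity was 11720 to 16660 at 2 weeks and 9536 to 13550 at 4 weeks. Of 11 tested smooth muscle and pericyte markers, the actin gene Acta2 (-0.88 ± 0.16) and the receptor gene Notch3 (-0.68 ± 0.19) fell, while Myh11 (0.01) and Tagln (0.03) were not called. Their sum was 8166 to 10640 and then 7745 to 8484. The call of Notch3 was lost on leaving out any control array but replicate 1 at 4 weeks. Without the set block neither Acta2 nor Notch3 was called. The part of these cell markers in the matrix result was not tested.

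**Figure D3:**
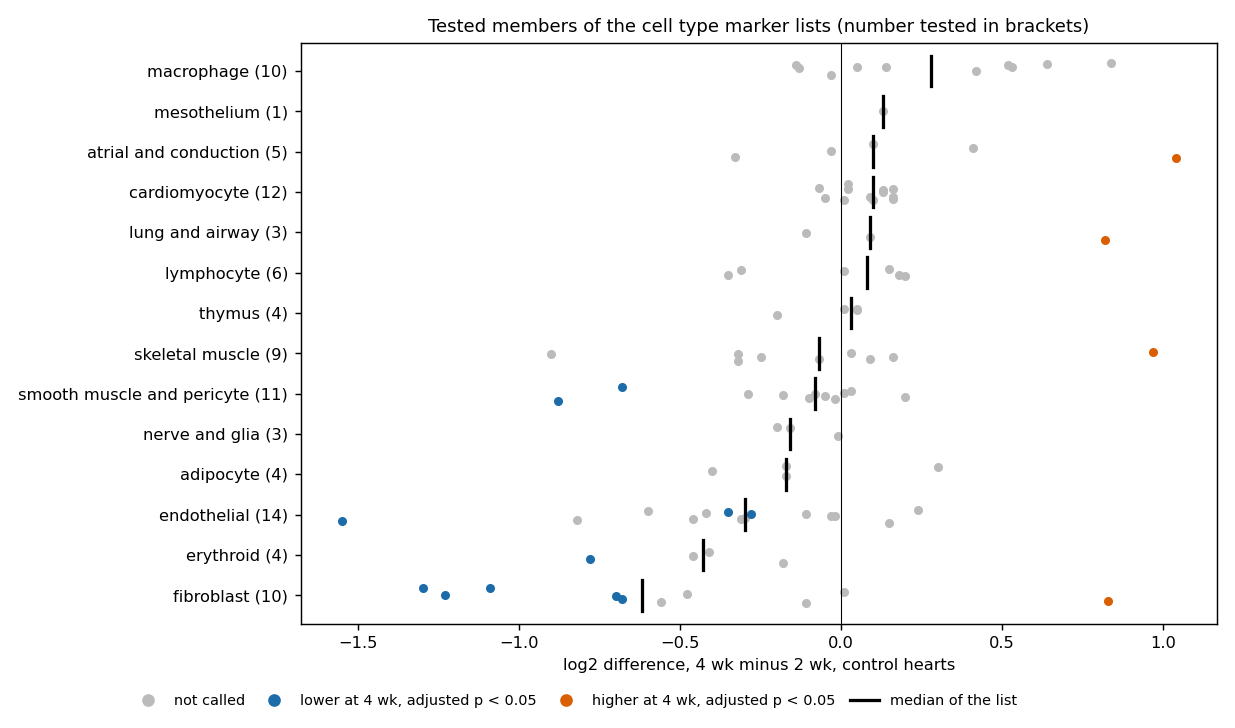
Each point is a tested member of a cell type marker list (rows, number tested in brackets), placed on the x axis by its log2 difference between 4 and 2 weeks in control hearts, with a black bar at the list's median. Fibroblast (median -0.62), erythroid (-0.43) and endothelial (-0.30) markers lie mostly left of 0, macrophage markers (0.28) mostly right, and cardiomyocyte markers (0.10) lie close to 0.

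Imprinted genes, which are read from 1 parental copy and many of which promote fetal growth, held 4 falls among 12 tested members and no rise, with a median of -0.29. Igf2, which encodes the fetal growth factor IGF-II, read 2787, 2345 and 2156 at 2 weeks and 843.2, 968.8 and 908.4 at 4 weeks. The ages were well separated in both sets (-1.34 and -1.43), and the fall was 2.64-fold (-1.40 ± 0.14, adjusted p = 3.18e-05 by limma). Mest went from 862.8, 563.5 and 157.6 to 37.4, 78.1 and 104.8 (-2.40 ± 0.47, 5.26-fold). The long non-coding RNA gene Meg3 (-1.27 ± 0.24) and the amino acid transporter gene Slc38a4 (-0.93 ± 0.19) fell without overlap. Of these 4, Igf2 alone was called without the set block (adjusted p = 0.0189), and 8 of the 12 tested members were not called in the main test. Dlk1, a further imprinted growth regulator, read 219.6, 462.7 and 304.2 and then 271.4, 267.1 and 250.5, with overlap and no call (-0.25 ± 0.23). In the insulin-like growth factor list Igf2 was the only call among 9 tested members, and Igf1 differed by -0.06 ± 0.14.

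Genes of dividing cells were mostly too dim to test. Of 68 cell cycle and replication genes with a probe set 26 were tested, and 1 of these, the cyclin gene Ccna2, was called (-0.76 ± 0.21, adjusted p = 0.0442 by limma). Ccna2 read 186.0, 135.3 and 416.3 at 2 weeks and 326.2, 83.4 and 64.3 at 4 weeks, so that the ages overlapped and the set-1 arrays were the highest of each age. Its call was lost in 15 of 24 alternatives, among them each fit that left out a control array other than replicate 1 at 4 weeks. The tested members had a median of -0.12. The proliferation marker Mki67 read 261.2, 144.9 and 63.0 and then 35.4, 48.4 and 65.7, which did not pass (-1.23 ± 0.36, adjusted p = 0.0781 in the fit to all 8251 genes). Top2a (-0.90 ± 0.29) and Cdk1 (-0.91 ± 0.37), both dim, were not called either. Growing tissue also expresses cytoskeletal genes of immature cells, and 4 of 18 tested members of that list fell while none rose (median -0.23). Marcks, which tethers actin to the membrane, went from 957.4, 773.6 and 620.1 to 367.7, 289.3 and 326.5 (-1.20 ± 0.19). Tmsb10, an actin-sequestering peptide, fell by 0.96 and the tubulin gene Tuba1a by 0.48 on the log2 scale, while Stmn1 differed by 0.03 and Sox4 by -0.38 without a call. The call of Tuba1a was lost on leaving out any control array but replicate 1 at 4 weeks.

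Antigen presentation rose. MHC class I molecules, with their partner β2-microglobulin, show peptides from inside a cell to T cells, and class II molecules, with the chaperone CD74, show ingested peptides and are carried mainly by antigen-presenting cells. Of 9 tested class I and II genes 5 rose and none fell, all 9 differences were above 0, and the median was 0.87. Without the set block 4 of the 5 calls remained. At 2 weeks Cd74 and H2-Aa had means below the dimmest tested gene's 183.9. These were 177.8 and 131.1 in controls and 182.9 and 135.6 in knockouts. Both genes passed the brightness filter through the 4-week arrays, where they were high, so the filter had a part in the count and the median. Of 5 further members left out as dim, 1 was called in the fit to all 8251 genes. The promoters of 4 genes of the list are shown, picked because the genes were called higher. The part of these promoters in the rise was not tested. They come from RefSeq (GRCm38.p6), 250 bases before to 50 after the annotated start, 5′ to 3′, on chr17:34000298-34000597 (minus strand, H2-K1, the first of its 2 entries), chr17:35262844-35263143 (plus strand, H2-D1), chr2:122147437-122147736 (plus strand, B2m) and chr17:34287774-34288073 (minus strand, H2-Aa). Capitals mark ATTGG or its reverse complement CCAAT, the letters of the Y box of MHC promoters.
H2-K1: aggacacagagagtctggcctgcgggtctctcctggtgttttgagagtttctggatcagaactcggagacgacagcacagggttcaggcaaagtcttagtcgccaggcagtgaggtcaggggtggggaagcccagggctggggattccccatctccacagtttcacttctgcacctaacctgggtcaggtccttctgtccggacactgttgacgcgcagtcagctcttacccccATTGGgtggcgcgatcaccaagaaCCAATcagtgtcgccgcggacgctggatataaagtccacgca
H2-D1: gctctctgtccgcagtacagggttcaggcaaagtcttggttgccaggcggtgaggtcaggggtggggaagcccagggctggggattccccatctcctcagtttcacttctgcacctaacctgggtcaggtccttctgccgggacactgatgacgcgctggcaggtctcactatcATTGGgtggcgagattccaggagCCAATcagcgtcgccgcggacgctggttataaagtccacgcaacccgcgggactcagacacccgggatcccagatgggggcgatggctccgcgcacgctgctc
B2m: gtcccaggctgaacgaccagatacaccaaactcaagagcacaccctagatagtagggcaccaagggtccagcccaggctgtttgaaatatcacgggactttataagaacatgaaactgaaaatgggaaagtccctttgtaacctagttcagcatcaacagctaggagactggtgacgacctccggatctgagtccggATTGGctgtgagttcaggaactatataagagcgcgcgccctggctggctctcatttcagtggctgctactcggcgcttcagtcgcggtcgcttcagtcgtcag
H2-Aa: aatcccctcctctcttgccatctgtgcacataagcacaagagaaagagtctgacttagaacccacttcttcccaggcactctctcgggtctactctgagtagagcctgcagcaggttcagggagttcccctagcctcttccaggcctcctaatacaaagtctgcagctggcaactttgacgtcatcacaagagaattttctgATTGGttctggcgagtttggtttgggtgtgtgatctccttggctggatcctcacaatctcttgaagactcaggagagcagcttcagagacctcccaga

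The letters ATTGG stood on the gene's own strand in all 4 windows, beginning 48 bases before the start in H2-Aa and 53 bases before it in B2m. In H2-D1 they began 76 bases before the start, with a second match as CCAAT 53 bases before it. In H2-K1 they began 16 bases before the annotated start, and the second match, CCAAT, lay 8 bases after it. The letters are common, since 12289 of 32851 promoters of that length (37.4%) hold them on either strand. These are matches of letters and not tests of binding.

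Among the 4950 genes of the main test, Cd74 had the largest rise. It read 131.8, 153.6 and 247.9 at 2 weeks and 933.9, 1270 and 1891 at 4 weeks. Every array at 4 weeks was more than 3 times as bright as any at 2 weeks, and the rise was 7.06-fold (2.82 ± 0.32, adjusted p = 9.2e-05 by limma). H2-Aa, the alpha chain of a class II molecule, read 148.1, 125.4 and 119.9 and then 247.0, 524.2 and 831.1, with the set-1 array lowest at 4 weeks (1.75 ± 0.26). Its partner H2-Ab1, outside the main test as dim, was called in the fit to all 8251 genes (1.33 ± 0.29, adjusted p = 0.0153 by limma). The class II gene H2-Eb1 (0.48) and the peptide-loading gene H2-DMa (0.05) were not called. Among class I genes, H2-K1 read 1643, 1534 and 1505 and then 2490, 2677 and 3520 (0.87 ± 0.13), and H2-D1 read 1338, 1269 and 1244 and then 2023, 2251 and 3118 (0.91 ± 0.13). Neither overlapped between the ages. B2m read 1495, 1402 and 899.6 and then 1479, 2591 and 3667, so that the 4-week array of set 1 fell inside the 2-week range although B2m rose within each set (0.71 and 1.08, 0.96 ± 0.14 in the fit). H2-Q5, a further class I gene, rose by 1.28 ± 0.23. Probe sets of such closely related class I genes may share signal, which was not tested.

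Some interferon-induced genes rose, and most genes of that list were dim. Of 9 tested members 3 rose and none fell, with a median of 0.14. None was called without the set block, and leaving out 1 control array gave 0 calls (without replicate 3 at 4 weeks or replicate 2 at 2 weeks) to 3. Iigp1, an interferon-induced GTPase that attacks intracellular parasites, read 206.8, 158.6 and 149.4 at 2 weeks and 283.2, 970.7 and 2113 at 4 weeks. The ages did not overlap, but the 4-week arrays spread widely (SD 925 around a mean of 1122, n = 3), and the call (2.20 ± 0.50, adjusted p = 0.0152 by limma) was lost without replicate 2 or 3 at either age. Iigp1 entered the test only through the 4-week controls, since its mean was 171.6 at 2 weeks and 122.0 and 126.7 in the knockouts at 2 and 4 weeks, each below the dimmest tested gene's 183.9. In the fit to all 8251 genes, which no filter shaped, its adjusted p was 0.0199 by limma. Other named genes also had means below 183.9 at 1 age in both controls and knockouts, and passed the filter through the other age. Among them were Cd74, H2-Aa, H2-Q5, Thrsp, Car3, Mgst1, Nqo1 and Ephx1 at 2 weeks, and Mest and Kcne1 at 4 weeks. The peptide-loading gene Tapbp (0.66 ± 0.15) and the antiviral gene Ifitm3 (0.41 ± 0.10) overlapped between the ages. Among dim members, the immunoproteasome genes Psmb9 (1.76 ± 0.33) and Psmb8 (1.38 ± 0.35), and also Igtp (1.66), Ifit1 (0.98) and Isg15 (0.65), were called in the fit to all 8251 genes. Mx1 (-0.20) and Irf8 (-0.11) were tested and not called, and none of the 31 standard proteasome subunits was called (median 0.02). Of 10 tested macrophage markers none was called, with a median of 0.28 and a highest value of 0.84 ± 0.30 for Lyz2. Their summed intensity was 3742 to 3999 at 2 weeks and 4031 to 5695 at 4 weeks, without overlap. In the fit to the 6 control arrays 3 of the 10 macrophage markers were called higher, and with the replicate block beside the set 4 were. None was called lower in these 2 fits. None of 6 tested lymphocyte markers was called (median 0.08), with sums of 2531 to 2911 and then 2347 to 3114, and none of 4 thymus markers. Cd8a was the only cell type marker at the floor of 0.95, on 1 control array. The part of immune cell number in the MHC result was not tested.

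Many enzymes that conjugate and clear reactive or foreign compounds rose. Of 21 tested glutathione transferase and drug metabolism genes 10 rose and none fell, with a median of 0.46. Without the set block 1 of these calls remained, and leaving out 1 control array gave between 4 and 9 calls. At 2 weeks Mgst1 and Ephx1 had means below the dimmest tested gene's 183.9, in controls (143.5 and 134.6) and in knockouts (131.7 and 148.7). Both passed the brightness filter through the 4-week arrays, so the filter had a part in the count of rises. Gstm2, a glutathione transferase of muscle, read 242.8, 254.7 and 282.6 at 2 weeks and 658.6, 677.0 and 977.5 at 4 weeks. The ages were clearly apart and the rise was 2.81-fold (1.49 ± 0.20, adjusted p = 0.0003 by limma; called without the block, adjusted p = 0.00556). Mgst1, the microsomal transferase, went from 133.5, 136.1 and 160.9 to 497.8, 405.6 and 567.6 (1.66 ± 0.35), and its call was lost without replicate 3 at 4 weeks. Ephx1, which opens epoxides, read 214.8, 148.6 and 40.4 and then 141.2, 558.4 and 740.4. Its ages overlapped because both set-1 arrays were dim, while the rise was alike within the sets (1.48 and 1.76, 1.66 ± 0.17 in the fit). Gstm1 (0.93), Gstm3 (0.58), Gstk1 (1.08), Aldh2 (0.85), Gsto1 (0.46) and Gstp1 (0.30) also rose. Gstm1 and Gstm3 each had another tested probe set of opposite sign, and the Gstm genes are near copies whose probes may share signal, so their values are uncertain.

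Car3, a carbonic anhydrase abundant in adipose tissue and slow muscle, went from 54.6, 85.4 and 156.1 to 599.9, 319.6 and 239.0 (1.81 ± 0.43). Its call was lost on leaving out any 1 of the 6 control arrays. Nqo1, a quinone reductase and target of the oxidative stress factor NRF2, read 100.5, 98.4 and 129.4 and then 255.8, 438.5 and 443.9 (1.62 ± 0.21, adjusted p = 0.000226 by limma). It was 1 of 3 rises among 19 tested antioxidant enzymes, beside the glutathione peroxidase genes Gpx3 (0.40) and Gpx4 (0.36), and none of the 19 fell (median 0.08). The call of Gpx3 was lost on leaving out any control array but replicate 2 at 4 weeks. That of Gpx4 was lost without replicate 3 at 4 weeks or any 1 of the 2-week arrays. Superoxide dismutase 1 and 2, catalase and peroxiredoxin 3 (Sod1 0.08, Sod2 -0.09, Cat 0.22, Prdx3 0.08) were not called. Among dim members of the detoxification list, the carboxylesterase gene Ces1d (2.98 ± 0.38), Gsta3 (1.47) and Gstt1 (1.35) were called in the fit to all 8251 genes. Ces1d read 19.5, 28.8 and 93.7 at 2 weeks and 251.0, 425.0 and 709.3 at 4 weeks.

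Within the main test the next largest rise after Cd74 was that of Ptgds, a prostaglandin D synthase that also carries small lipids. Ptgds read 419.0, 266.5 and 445.3 at 2 weeks and 3235, 1881 and 2660 at 4 weeks. The ages were far apart in both sets (2.82 and 2.68), and the gene had the smallest p of all 4950 tested genes (2.73 ± 0.21, 6.63-fold, adjusted p = 3.76e-06 by limma). Clu, the secreted chaperone clusterin, went from 986.1, 829.6 and 334.7 to 1244, 1988 and 2269 (1.43 ± 0.17). Nampt, which makes the NAD precursor nicotinamide mononucleotide (1.48 ± 0.34), the transcription co-regulator gene Cited2 (1.22 ± 0.28) and the glutamine synthetase pseudogene Glns-ps1 (2.30-fold) also rose without overlap. The calls of Nampt and Cited2 were each lost without replicate 2 or 3 at 4 weeks or replicate 1 at 2 weeks, and that of Cited2 also without replicate 2 at 2 weeks.

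The circadian clock list held 3 rises and no fall among 13 tested members, with a median of -0.05 and 8 members below 0. Nr1d1 alone was called without the set block, Nr1d2 lost its call without replicate 3 at 4 weeks, and Tef without replicate 2 or 3 at 4 weeks or replicate 1 or 2 at 2 weeks. Nr1d1, which encodes the clock repressor REV-ERBα, read 201.9, 185.6 and 199.9 at 2 weeks and 494.2, 474.6 and 549.8 at 4 weeks. The spread within each age was small and the rise equal in the sets (1.24 and 1.33), a 2.46-fold difference (1.30 ± 0.14, adjusted p = 4.85e-05 by limma). Its paralogue Nr1d2 went from 272.2, 278.5 and 245.6 to 426.1, 688.0 and 831.9 (1.19 ± 0.24) and Tef, a clock-driven transcription factor, from 423.6, 494.2 and 597.1 to 758.6, 827.4 and 842.6 (0.68 ± 0.17). Dbp, a relative of Tef and strongly rhythmic, was dim on average and read 110.6, 67.0 and 41.2 and then 151.6, 808.7 and 977.1 (2.61 ± 0.40, adjusted p = 0.00145 in the fit to all 8251 genes). The activators Arntl (-0.53 ± 0.34), Npas2 (-0.29) and Clock (-0.27) and the repressor Cry1 (-0.23) were not called. The labels give no time of day for the hearts, so age and sampling hour cannot be told apart. Of 13 tested glucocorticoid targets 1 was called, the metallothionein gene Mt1 (0.96 ± 0.18), and of 17 immediate-early genes none was.

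**Figure D4:**
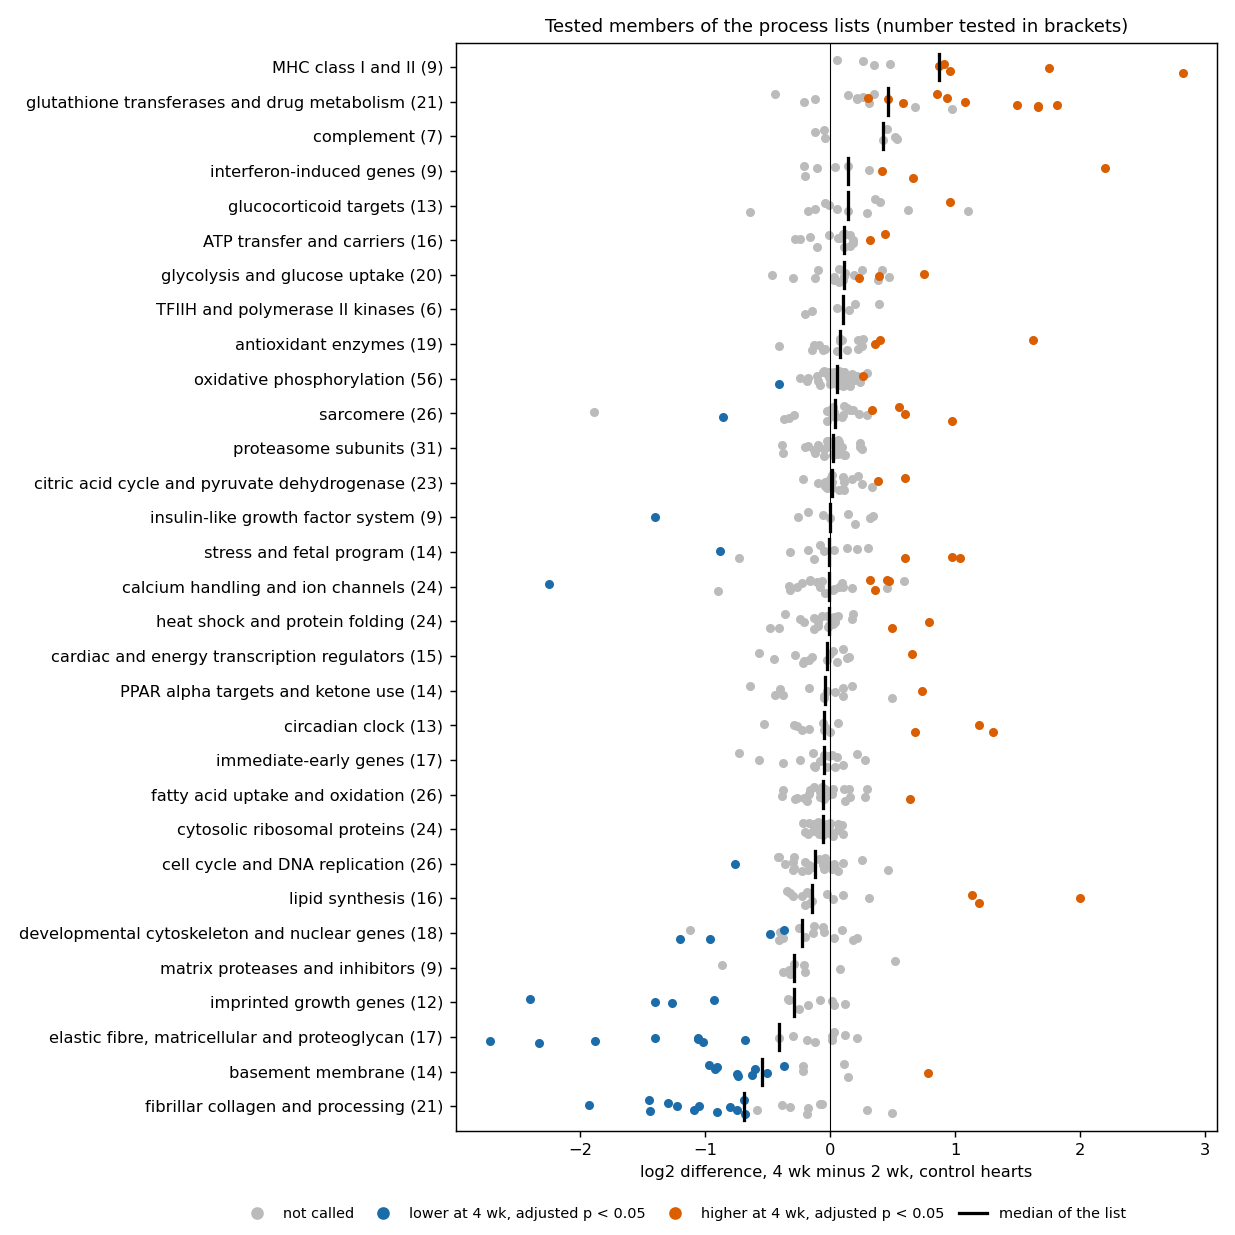
Each point is a tested member of a process list (rows, number tested in brackets), placed on the x axis by its log2 difference between 4 and 2 weeks in control hearts, with a black bar at the list's median. MHC (median 0.87) and glutathione transferase and drug metabolism genes (0.46) stand to the right, the 3 main matrix lists (-0.41, -0.55 and -0.69) to the left, and the contractile, mitochondrial, ribosomal and proteasome lists lie within 0.12 of 0.

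A few fuel genes rose, while most tested members of their pathways were not called. Of 26 tested genes of fatty acid uptake and oxidation 1 rose and none fell, with a median of -0.06. The riser was Lpl, the lipoprotein lipase that frees fatty acids from circulating fat, which read 3874, 4217 and 4510 at 2 weeks and 6369, 6448 and 6795 at 4 weeks (0.64 ± 0.08, 1.56-fold, adjusted p = 0.000199 by limma). The transporter Cd36 (0.28 ± 0.15), the dehydrogenases Acadm (0.15) and Acadl (-0.06) and the entry enzyme Cpt1a (-0.38 ± 0.12, adjusted p = 0.0938) were not called. Among the PPARα targets, Pdk4, which restrains glucose oxidation, read 2210, 2265 and 2084 and then 919.9, 1603 and 1857. It was lower at 4 weeks on every array but not called (-0.64 ± 0.22, adjusted p = 0.119 by limma). Oxct1, the first enzyme of ketone use, rose from 1196, 1552 and 1407 to 2166, 2273 and 2463 (0.73 ± 0.12). The dim genes Acot1 (2.00-fold) and Fbp2 (2.08-fold) of the same list fell in the fit to all 8251 genes. The regulators Ppara (-0.03) and Ppargc1a (-0.27, dim) were not called.

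In the citric acid cycle 2 of 23 tested genes rose and none fell (median 0.01). Idh2, the mitochondrial NADP-linked isocitrate dehydrogenase, went from 3396, 3319 and 3186 to 4450, 5230 and 5424 (0.60 ± 0.07, 1.52-fold). Suclg2, of the GTP-forming succinyl-CoA ligase, rose by 0.38 ± 0.08, a call lost without replicate 3 at 4 weeks or replicate 1 at 2 weeks. Of 56 tested genes of oxidative phosphorylation 1 rose and 1 fell, with a median of 0.05. They were the 2 isoforms of a cytochrome oxidase subunit, the muscle form Cox6a2 (6445, 7032 and 6696, then 7138, 8559 and 8539) and the widely expressed form Cox6a1 (3551, 3411 and 2364, then 1551, 2752 and 2851). Cox6a2 rose by 0.26 ± 0.06 (adjusted p = 0.0178 by limma) and Cox6a1 fell by 0.41 ± 0.12 on the log2 scale (adjusted p = 0.0483). The arrays of Cox6a1 overlapped between the ages, its call was lost on leaving out any 1 control array, and that of Cox6a2 on leaving out replicate 2 or 3 at 4 weeks or replicate 1 or 2 at 2 weeks.

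Of 20 tested glycolysis genes 3 rose and none fell (median 0.11). Slc2a4, the insulin-responsive glucose transporter GLUT4, went from 955.2, 1144 and 893.4 to 1281, 1855 and 1985 (0.75 ± 0.14, 1.68-fold), while the fetal transporter Slc2a1 differed by 0.41 without a call. Ldhb, the lactate dehydrogenase subunit typical of heart, rose by 0.39 and Aldoa by 0.23. The call of Ldhb was lost without replicate 3 at either age, and that of Aldoa without replicate 2 or 3 at 4 weeks or replicate 1 at 2 weeks. None of the 3 glycolysis rises, Slc2a4 included, was called without the set block. Ckmt2, the mitochondrial creatine kinase (0.32), and the creatine transporter gene Slc6a8 (0.44) were the 2 rises among 16 genes of ATP transfer. A second tested probe set of Slc6a8 had the opposite sign. Both calls were lost without replicate 2 or 3 at 4 weeks or replicate 1 at 2 weeks. That of Slc6a8 was also lost without replicate 2 at 2 weeks, and that of Ckmt2 without replicate 3 at 2 weeks. Neither gene was called without the set block. In lipid synthesis 3 of 16 tested genes rose and none fell, although the median was -0.15. Thrsp, a thyroid hormone-responsive regulator of lipid synthesis, read 112.0, 103.0 and 130.2 and then 288.3, 568.9 and 786.9 (2.00 ± 0.23, 4.00-fold, adjusted p = 9.2e-05 by limma). Mid1ip1, its binding partner and paralogue, went from 533.1, 632.4 and 681.3 to 1082, 1504 and 1751 (1.19 ± 0.21), and the desaturase gene Scd1 from 209.2, 208.8 and 193.8 to 448.4, 434.0 and 520.0 (1.13 ± 0.21). All 3 were also called without the set block. Fasn (0.02), Acly (-0.32) and Srebf1 (-0.16) were not called. None of 4 tested adipocyte markers was called, and their summed intensity was 1547 to 1815 at 2 weeks and 1500 to 1615 at 4 weeks.

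In the contractile apparatus 4 of 26 tested sarcomere genes rose and 1 fell, with a median of 0.04. Myh6, the adult fast myosin of mouse heart, read 11740, 12280 and 10230 at 2 weeks and 10570, 11970 and 12120 at 4 weeks (0.02 ± 0.04). Myh7, the fetal slow myosin, differed by 0.03 ± 0.08, but its coding sequence is nearly identical to that of Myh6 and the probe sets may share signal. Acta1, the skeletal form of sarcomeric actin, rose from 2455, 2904 and 2805 to 4292, 5687 and 6187 (0.97 ± 0.12, 1.96-fold, adjusted p = 0.000134 by limma). The heart form Actc1 differed by 0.02 ± 0.05, and of 9 tested skeletal muscle markers Acta1 was the only call. Ankrd1, a stretch-responsive protein of the titin filament, rose by 0.60 ± 0.08, the chaperone gene Cryab by 0.55 and the intermediate filament gene Des by 0.33. Tnnt1, the slow skeletal troponin T, fell by 0.86 on the log2 scale. Without the set block 2 of the 4 sarcomere rises and no fall were called. The call of Cryab was lost without replicate 3 at 2 weeks. Tnni1, the fetal troponin I, read 1334, 242.5 and 179.6 and then 151.1, 96.9 and 55.6. All 4-week arrays were lower, but 1 array at 2 weeks stood far above the rest and the difference was not called (-1.89 ± 0.82, adjusted p = 0.222 by limma). The adult form Tnni3 differed by 0.16 ± 0.07 without a call.

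Of 24 tested calcium handling and ion channel genes 4 rose and 1 fell, with a median of -0.01. None was called without the set block, and without replicate 3 at 4 weeks or replicate 1 at 2 weeks 1 rise and no fall was. Kcne1, the regulatory subunit of the slow potassium channel, had the largest fall, from 1640, 695.3 and 315.3 to 121.4, 148.0 and 145.6 (-2.25 ± 0.52, 4.75-fold, adjusted p = 0.0182 by limma). The 2-week arrays differed widely, and the call was lost without replicate 2 or 3 at 4 weeks or replicate 1 at 2 weeks. The dim T-type channel gene Cacna1g also fell (-1.24 ± 0.26). S100a1, a calcium sensor that stimulates the release channel (0.47 ± 0.09), the L-type channel gene Cacna1c (0.45 ± 0.13), the store protein gene Hrc (0.36 ± 0.08) and the pump regulator gene Fxyd1 (0.32 ± 0.08) rose. The calcium pump Atp2a2 (0.07 ± 0.07) and the release channel Ryr2 (-0.07 ± 0.10) were not called. Aqp4, a water channel, fell from 478.0, 585.8 and 513.0 to 272.3, 148.0 and 143.5 (-1.46 ± 0.24).

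In the stress and fetal program list 3 of 14 tested genes rose and 1 fell. Nppa, the atrial natriuretic peptide, read 988.3, 935.1 and 435.1 at 2 weeks and 1385, 1525 and 1717 at 4 weeks (1.04 ± 0.20, adjusted p = 0.00506 by limma). The ages did not overlap, and the rise was 1.64 within set 1 and 0.74 within set 2. Nppa was not called without the set block. Atrial markers varied between the same arrays, since their summed intensity was 5987, 5884 and 2530 at 2 weeks and 4810, 5319 and 4881 at 4 weeks. Myl7, the atrial myosin light chain, differed by -0.33 without a call. The part of atrial tissue in the Nppa result was not tested. Nppb, the related peptide of the ventricle, read 3232, 3221 and 2057 and then 2922, 2936 and 3288, with overlap (0.13 ± 0.11). Tead1, a growth-related transcription factor, was the 1 call among 15 tested cardiac and energy regulators (0.65 ± 0.16). Its call was lost without the set block, and on leaving out any control array but replicate 1 at 4 weeks. Gata4 (-0.22), Nkx2-5 (0.13) and Mef2c (0.05) were not called.

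Tfrc, the transferrin receptor through which dividing and blood-forming cells take up iron, fell from 1345, 1421 and 1436 to 925.3, 796.5 and 722.1 (-0.78 ± 0.11, adjusted p = 0.000677 by limma), the 1 call among 4 tested erythroid markers. Alas2 (-0.46) and Hba-a1 (-0.18) were not called, and the summed erythroid intensity was 10100 to 10220 and then 7817 to 8811. Sftpd, the surfactant protein D gene, rose by 0.82 ± 0.13, while Sftpb (-0.11) and Ager (0.09) of the lung list were not called, and the lung sum was 1476 to 2019 and then 1525 to 2385. Of 24 tested chaperone genes the membrane stress gene Herpud1 (0.79) and the small heat shock gene Hspb8 (0.49) rose. The call of Herpud1 was lost without replicate 2 or 3 at 4 weeks or replicate 1 at 2 weeks. Without the set block Tfrc, Sftpd, Herpud1 and Hspb8 were not called. None of 24 ribosomal protein genes was called (median -0.06). Itm2a, a membrane protein of differentiating muscle and cartilage (-1.92 ± 0.22), and Nrep, linked to regeneration (-1.37 ± 0.24), fell without overlap of the ages.

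The age change of the controls was set beside that of the knockout hearts in the same fit. In the knockouts 1242 of 4950 genes were called between 2 and 4 weeks (25.1%), 709 higher (14.3%) and 533 lower (10.8%). With 4 and 5 arrays the knockout contrast has a smaller standard error than the control contrast, so the 2 counts are not on equal terms. Of the 142 genes that rose in controls 67 also rose in the knockouts and 14 fell, and of the 151 that fell in controls 36 also fell and 22 rose. The difference between the 2 age changes was called for 616 genes (12.4%), 355 of them more positive in the knockouts (7.17%) and 261 more negative (5.27%). That split depended on the scaling, since median scaling gave 252 and 279. Leaving out replicate 2 or 3 of the controls at 4 weeks gave 405 and 406 called differences, and leaving out replicate 1 or 3 of the controls at 2 weeks 367 and 404. Without the set block the difference was called for 77 genes. The difference uses the same control arrays as the control change, so a gene chosen for a large control change leans towards a difference of opposite sign, and each group's own value is given below.

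Matrix lists differed between the groups in their medians. The median of the fibrillar collagen list was -0.69 in controls and 0.32 in knockouts, where 9 of the 21 genes rose. The elastic and matricellular list had a median of -0.41 and 0.45, with 8 of 17 rising in the knockouts, and the basement membrane list -0.55 and -0.05. Postn differed by -1.88 ± 0.28 in controls and 1.16 ± 0.23 in knockouts (difference 3.03 ± 0.36, adjusted p = 8.44e-05 by limma). Lox differed by -1.93 and 1.84 (difference 3.77 ± 0.61), Fn1 by -1.40 and 0.45 (1.85 ± 0.17) and Col1a2 by -1.30 and 0.72 (2.02 ± 0.26). Col6a3 differed by -1.44 in controls and -0.14 in knockouts, Itm2a by -1.92 and -0.38, and Col4a1 by -0.92 and 0.13.

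Igf2, Mest and Nr1d1 changed in the same direction in the knockouts. Igf2 differed by -1.40 ± 0.14 in controls and -1.11 ± 0.11 in knockouts, and the difference of 0.29 ± 0.18 was not called (adjusted p = 0.352 by limma). Mest differed by -2.40 and -1.55 (difference 0.85 ± 0.61), Kcne1 by -2.25 and -2.72, Aqp4 by -1.46 and -1.56 and Tfrc by -0.78 and -0.71, none with a called difference. Nr1d1 rose in both (1.30 and 0.92, difference -0.38 ± 0.18, adjusted p = 0.188), whereas Nr1d2 differed by 1.19 and 0.03 and Dbp by 2.61 and 0.03, both with a called difference. That of Dbp, a dim gene, came from the fit to all 8251 genes. Cd74 rose in both (2.82 and 1.81, difference -1.01 ± 0.42, adjusted p = 0.135), as did B2m (0.96 and 0.89), while Iigp1 differed by 2.20 in controls and -0.01 in knockouts (difference -2.21 ± 0.64, adjusted p = 0.0346). Iigp1 entered the test only through the 4-week controls, where it was high, so the filter had a part in this called difference. Nqo1 (1.62 and 1.70), Ephx1 (1.66 and 2.19) and Nppa (1.04 and 1.24) rose in both groups.

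Several fuel genes that rose in controls were not higher in the knockouts. Lpl differed by 0.64 and 0.00, Oxct1 by 0.73 and 0.00, and Idh2 by 0.60 ± 0.07 and -0.49 ± 0.06 (difference -1.09 ± 0.09, adjusted p = 4.98e-06 by limma). Thrsp differed by 2.00 and 0.03 and Mid1ip1 by 1.19 and -1.01 (difference -2.21 ± 0.28). Scd1 (1.13 and 1.5), Slc2a4 (0.75 and 0.41) and Slc6a8 (0.44 and 0.47) instead rose in both groups, without a called difference. The median of the fatty acid list was -0.06 in controls and -0.56 in knockouts, where 23 of its 26 genes fell, and that of the citric acid cycle list 0.01 and -0.31, with 18 of 23 falling. Myh6 and Ryr2, not called in controls, differed by -0.31 and -0.87 in the knockouts. Hrc differed by 0.36 in controls and -0.95 in knockouts, and Acta1 by 0.97 and 0.25.

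**Figure D5:**
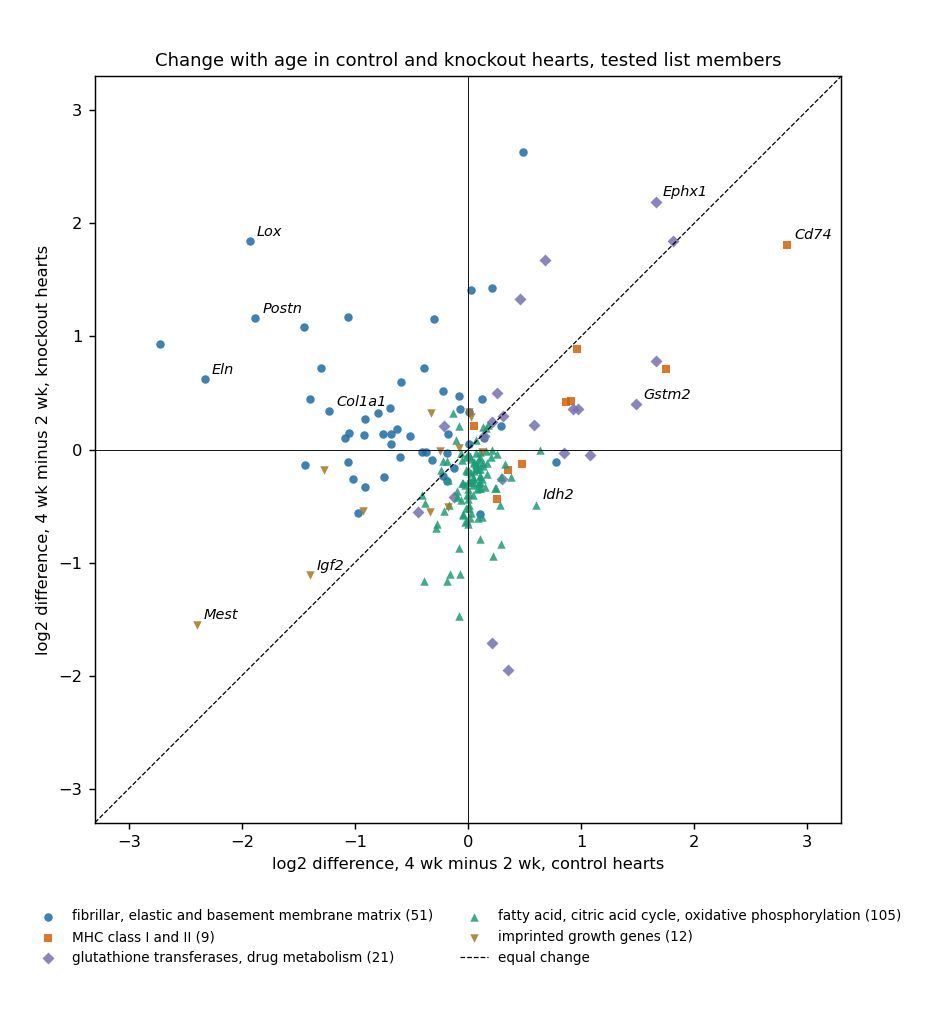
Log2 difference between 4 and 2 weeks in control hearts (x axis) and in knockout hearts (y axis) for tested members of 5 groups of lists, marked by colour and shape with the number of genes in brackets, and a dashed line of equal change. Matrix genes lie mostly left of 0 and above the line (Lox at -1.93 and 1.84), Igf2 and Mest lie lower left, Cd74 and Ephx1 upper right, and mitochondrial genes spread downwards around 0 on the x axis.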

How the data were processed

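The authors deposited linear intensities, 1 per probe set and array. The labels name neither software, background correction nor scaling (not given in the sources used here). Values were used as deposited, without rescaling. Per the labels' protocols, RNA was isolated with Trizol and columns and labelled with biotin. The labels do not say whether each array had its own mouse, so p-values measure only the spread between these samples, which may be technical. For arrays, their number limits the precision. Of 12422 probe sets 10833 had 1 symbol, 396 several and 1193 none, and 10817 matched a RefSeq table (GRCm38.p6). Where a gene had several probe sets with 1 symbol, the brightest on average stood for it, which gave 8251 genes. The dimmest 40% were left out, which left 4950 tested.

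Tests used limma 3.58.1 in R 4.3.3 on log2(intensity + 16) over all 15 arrays, with 1 coefficient per group, the array set as a block, eBayes with a trend on intensity, two-sided, and p-values adjusted by Benjamini and Hochberg's method across 4950 genes (over all 8251 for dim genes, over all probe sets for Mnat1). The fit was tested on simulated data. Of 1074 genes on 45 lists 858 had a probe set, 6 through synonyms. Sample numbers were checked for pairing: same-numbered control arrays had deviations correlated at -0.594, 0.512 and -0.727. Numbers 1 and 3 join arrays of different sets and number 2 arrays of the same set, so this check could not show pairing, and none was used. Members and lists were chosen with earlier results of these data known. Named genes were the 15 largest non-overlapping rises and falls, a set list, and from each list the 3 genes of smallest p, of which the text names some. Other list members were named after their values were seen. Alternatives covered the block, scaling, pseudocount, filter, probe set choice and each array.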

Additional observations from a re-analysis of the deposited data

Results flagged for a closer look

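These results stood out because the change between 2 and 4 weeks differed between knockout and control hearts by limma's test of the difference itself, which called 616 of 4950 tested genes. Dbp and Ppargc1a, outside that test as dim, are not among the 616 and were called in the fit to all 8251 genes. Values are the knockout change minus the control change (log2), given here for the genes that the naming rule chose. Matrix genes were more positive in the knockouts: Lox (3.77), Mfap4 (3.65), Postn (3.03), Eln (2.95), Col5a2 (2.52), Col1a2 (2.02), Fn1 (1.85), Col1a1 (1.57), Col6a3 (1.30), Col3a1 (1.19), Col4a1 (1.05), Sparc (0.89), Lum (0.83) and Col4a2 (0.63), beside the protease and inhibitor genes Adam19 (1.39) and Timp2 (0.79). Other positive differences were those of Myl7 (1.68), Itm2a (1.54), Psmd8 (1.48), Atf3 (1.10), Nr4a1 (0.82), Pmp22 (0.74), Gpx3 (1.34), Meg3 (1.08), Marcks (1.00), Tmsb10 (1.00), Tuba1a (0.91), Nppb (0.54) and Gpx4 (0.42).

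Fuel and lipid genes were more negative in the knockouts: Mid1ip1 (-2.21), Thrsp (-1.98), Idh2 (-1.09), Ppargc1a (-0.94), Oxct1 (-0.73), Ldhb (-0.66), Lpl (-0.64), Suclg2 (-0.61), Ogdh (-0.59), Ckmt2 (-0.54), Cox7a1 (-0.53), Eci2 (-0.39) and Cox6a2 (-0.30). Contractile and calcium genes were Hrc (-1.31), Ryr2 (-0.80), Acta1 (-0.72), Tnni3 (-0.68), Ankrd1 (-0.45), Atp2a2 (-0.44), Myh6 (-0.32), Mybpc3 (-0.27) and the oxygen store gene Mb (-0.64). The remaining negative differences were those of Dbp (-2.59), Iigp1 (-2.21), Ptgds (-1.90), Nr1d2 (-1.16), Herpud1 (-1.16), Gstm2 (-1.09) and Sftpd (-0.60). All use the control arrays that also give the control change. Iigp1 entered the test only through the 4-week controls, where it was high. No group of control arrays was large enough for a test of single outlying samples.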

How the results depend on the processing

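The 293 control calls moved with the treatment of the array sets: 36 without the block, 51 within set 1 (a single array per age), and 40 with quantile normalization without the block, chosen after seeing the data. Leaving out 1 control array gave 129 to 373. The 616 differences became 77, 297 (set 1), 358 (set 2) and 110 in those fits, and 367 to 707 on leaving out 1 array. With sample numbers as a replicate block in place of the set, 15 and 23 genes were called, and with the replicate block beside the set 428 and 767. Scaling, pseudocount, filter, probe set choice, spread, inferred sex and a fit to the 6 control arrays kept the control count between 236 and 369. Median scaling moved the median of all genes by less than 0.1 (to 0.002) and gave 141 higher and 108 lower control calls. Xist and Uty, which follow sex, gave 3.29 and -3.54 within set 1, with signs opposite to the main values of -1.17 and 0.12. Of 83 called named genes none changed sign in any of 24 alternatives, 76 kept the call under the scalings and pseudocounts, 52 without any 1 control array, and 27 without the block. Of 23 uncalled ones 13 changed sign somewhere and 7 were called somewhere. The number of arrays and, for dim genes, signal near the floor limit these values, and the causes were not tested.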

Other observations

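The following 4 genes act in the breakdown of branched-chain amino acids. They were picked after their values were seen and because they rose, from no list, so they say nothing about the pathway as a whole. Bckdha, a subunit of the branched-chain keto acid dehydrogenase, read 338.5, 381.6 and 337.4 at 2 weeks and 557.6, 816.8 and 891.1 at 4 weeks (1.04 ± 0.17, adjusted p = 0.00185 by limma). Its partner Bckdhb rose by 0.52 ± 0.12, and the leucine pathway genes Ivd and Auh by 0.97 ± 0.20 and 0.75 ± 0.14. In the knockouts the same 4 genes differed by -0.23, -0.58, -0.35 and -0.06.

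Among genes outside the main test as dim, Cpxm2, a carboxypeptidase-like protein, differed by 3.34 ± 0.58 (adjusted p = 0.00359 in limma's fit to all 8251 genes), the methyltransferase gene Inmt by 2.41 ± 0.38 and the xanthine dehydrogenase gene Xdh by 2.21 ± 0.58. These too were chosen after their values were seen. Cyp2f2, an airway cytochrome, read 348.8, 0.95 and 444.6 at 2 weeks and 0.95 on all 3 arrays at 4 weeks, and was not called (adjusted p = 0.221).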
